A study of Mus musculus with 14 samples.

Results

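Mitochondrial ribosomal proteins were taken as every non-control probe of the array whose gene name begins with Mrpl or Mrps followed by a digit. The rule found 100 of 55681 probes, 61 for 47 genes of the large subunit (Mrpl) and 39 for 29 genes of the small subunit (Mrps), or 76 genes in all, each of which matched a RefSeq symbol. The rule used names and no measured value. All 100 probes passed the filter on dim signals, and 97 were well above background on all 14 arrays. The exceptions were Mrpl44 (12 arrays), Mrpl21 (13 arrays) and the dimmer of the Mrpl49 probes (11 arrays).

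RNA came from satellite cells, which are stem cells lying along muscle fibres, sorted from dissociated muscle as integrin alpha 7 and CD34 positive cells that lacked CD31, CD45, CD11b and Sca1. It was amplified and hybridised to single-colour Agilent arrays, 1 sample to an array. Mice of 3 groups were C57BL/6 mice, of which Young mice (n = 3) were aged 2 to 3 months, Old mice (n = 3) 22 to 24 months and Geriatric mice (n = 2) 29 and 30 months. The others were SAMP8 (n = 3), a senescence-prone strain, and its senescence-resistant counterpart SAMR1 (n = 3), both aged 12 months. All are labelled male, no group was given a treatment or carried an engineered allele according to the labels, and Geriatric arrays carry the numbers 1 and 3. Arrays are described as biological replicates, without saying whether cells of several animals were pooled.

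Mitochondria keep a small genome of their own that encodes subunits of the respiratory chain, and they translate it on a ribosome separate from the cytosolic one. Its RNAs are mitochondrial, whereas all of its proteins are encoded in the nucleus, made in the cytosol and imported. Many of these proteins have a counterpart in bacterial ribosomes (47 of the 76 genes here) and the others were classed by hand as added in mitochondria (29 genes). Quiescent satellite cells hold few mitochondria and build more of them when they are activated. The gene named Mrps36 was kept by its name and is counted in this division of the 76 genes. Its product is, however, now known in mammals as a subunit of the alpha-ketoglutarate dehydrogenase complex.

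Each probe is a 60-base oligonucleotide, and 14 of the 100 align across an intron of mouse build mm9. The 5 shown here, from the deposited files, are those that the comparisons below turn on, together with a pair of Mrpl40 probes whose shared bases stand in capitals. The Mrpl35 probe lies at chr6:71765277-71765336 on the minus strand. The Mrpl41 probes lie at chr2:24829696-24829755 and chr2:24828035-24828094, also on the minus strand, so the first of them is the one nearer to the start of the transcript. The Mrpl9 probes lie at chr3:94252112-94252171 and chr3:94254157-94254216 on the plus strand, again with the first one upstream. The Mrpl40 probes lie at chr16:18872319-18872378 and chr16:18872311-18872370 on the minus strand and share 52 of their 60 bases, so they read nearly the same stretch of RNA.
Mrpl35 A_51_P351697: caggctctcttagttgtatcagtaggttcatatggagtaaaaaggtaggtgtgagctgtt
Mrpl41 upstream A_52_P209172: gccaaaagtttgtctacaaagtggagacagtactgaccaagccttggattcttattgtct
Mrpl41 downstream A_55_P1969221: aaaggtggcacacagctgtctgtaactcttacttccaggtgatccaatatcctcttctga
Mrpl9 upstream A_66_P136372: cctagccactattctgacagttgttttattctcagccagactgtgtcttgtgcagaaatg
Mrpl9 downstream A_55_P2103541: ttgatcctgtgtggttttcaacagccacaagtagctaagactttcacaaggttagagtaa
Mrpl40 A_55_P2025665: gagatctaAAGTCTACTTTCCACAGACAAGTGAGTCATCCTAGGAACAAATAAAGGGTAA
Mrpl40 A_55_P2138529: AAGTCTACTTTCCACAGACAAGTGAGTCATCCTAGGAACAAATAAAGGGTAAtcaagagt

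Several features of the whole set of arrays touch the results. The share of spots with a signal well above background ran from 77.2% (SAMP8 2) to 88.7% (Old 1) over the arrays, and no probe was saturated. Outlier spots numbered 969 on Geriatric 1 and 94 to 255 on the other arrays. The arrays lie on 2 slides by the array identifiers in the file headers, slide 1 with Young 1 and 3, Old 2, SAMP8 2 and SAMR1 1 and 3, and slide 2 with the other 8, among them both Geriatric arrays. Xist read 5.08 to 5.86 on the Young and Old arrays, while Ddx3y, Uty and Kdm5d were not well above background there. Ddx3y read −0.55 to 0.56 on the Geriatric, SAMP8 and SAMR1 arrays, so sex-linked transcripts divide the arrays although all are labelled male. In each comparison of Geriatric with Young or Old this division cannot be told apart from age. The 5 sex-linked probes, Xist included, were all above background on SAMR1 1, SAMP8 1 and SAMP8 3. In SAMP8 against SAMR1 their changes ran from −0.47 to 2.62, and none passed limma's test (lowest adjusted p = 0.327). The 14 probes for satellite cell markers were nearly all above background on every array (13 or 14 of 14). The 8 endothelial probes had a mean level of −0.26 to 2.45 on SAMP8 arrays and 1.47 to 2.83 on SAMR1 arrays, against −2.24 to −0.33 on the C57BL/6 arrays, although the sort removed CD31-positive cells.

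A level is the log2 of the processed signal less the log2 of the array's 75th percentile, so that 0 means a probe as bright as that percentile and a step of 1 is a doubling. Changes are differences of group means on this scale, given with the standard error (SE) from limma. The 5 comparisons were fitted together over all 14 arrays, and p-values were adjusted by Benjamini-Hochberg over 49918 probes.

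Both subunits were expressed in all 5 groups, and their overall level was similar from group to group. The median of the 61 large subunit probes was 0.48, 0.02 and −0.03 on the Young arrays, −0.21, −0.03 and 0.06 on the Old arrays and 0.16 and 0.49 on the Geriatric arrays. For SAMP8 it was 0.17, 0.04 and 0.14, and for SAMR1 it was 0.29, 0.06 and 0.15. The ranges of Young and Geriatric overlapped nearly in full, and those of SAMP8 and SAMR1 overlapped as well, while both Geriatric arrays lay above all 3 Old arrays. The median of the 39 small subunit probes was 0.91, 0.59 and 0.31 on the Young arrays, 0.28, 0.34 and 0.59 on the Old arrays and 0.52 and 0.89 on the Geriatric arrays. It was 0.48, 0.24 and 0.46 for SAMP8 and 0.46, 0.52 and 0.51 for SAMR1, and in this subunit the Geriatric and Old arrays overlapped.

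**Figure D1:**
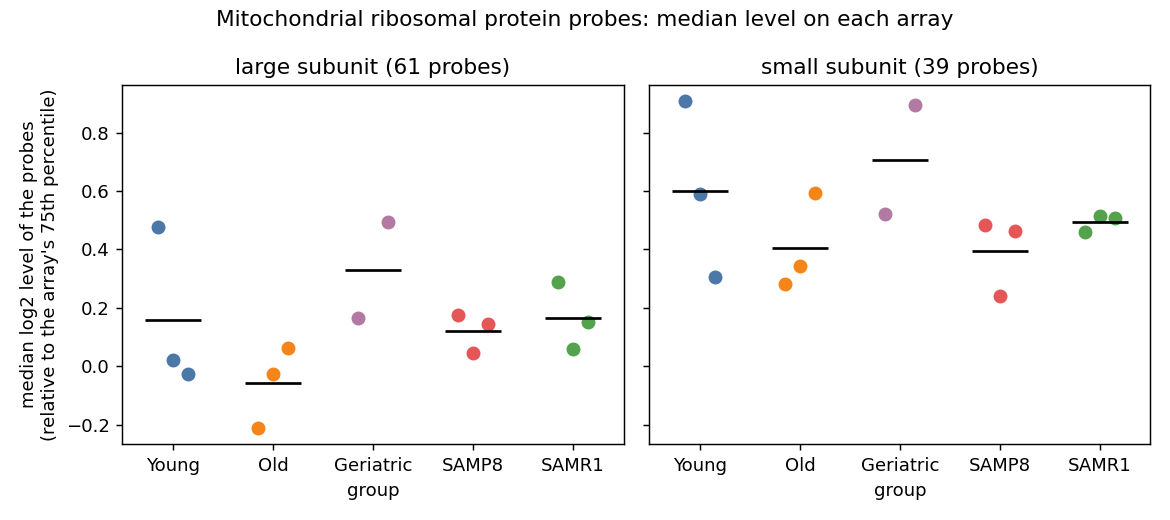
Median log2 level of the large subunit (left, 61 probes) and small subunit (right, 39 probes) on each of the 14 arrays, relative to the array's 75th percentile; points are arrays and bars are group means. The Young arrays alone spread from −0.03 to 0.48 in the large subunit and from 0.31 to 0.91 in the small subunit, which spans most of the other groups.

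The spread of member probes was smaller than that of most probes. The median SE of a member's change was 0.26 for Old versus Young and 0.29 for Geriatric versus Old, against 0.32 and 0.36 over the 21777 tested probes with a gene symbol. In the comparison of Old with Young the 95% interval of the change lay within 1 log2 unit of 0 for 70 of 100 members (70.0%, against 43.4% of the probes with symbols). The same held for 57 members in Geriatric versus Young, 47 in Geriatric versus Old and 72 in SAMP8 versus SAMR1. A probe that missed the threshold is thus not shown to be the same in both groups. The interval lay wholly beyond 1 log2 unit for Mrpl44 in Geriatric versus Old and for Mrpl35 in SAMP8 versus SAMR1.

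Old against Young asks what happens in satellite cells up to about 2 years of age. None of the 100 members passed limma's test with Benjamini-Hochberg adjustment, where 1.24% of all tested probes did, and 8 members had an unadjusted p under 0.05 (16.5% of all tested probes did). The median change was −0.14 for the large and −0.22 for the small subunit, beside −0.06 for all probes with symbols and 0.07 for all tested probes. It was negative for 73 probes and positive for 27. With the percentile taken over probes with symbols these medians were 0.00 and −0.08 and that of all tested probes was 0.20. The large subunit's median was thus near 0 under that scaling. It was −0.12 with the authors' deposited log2 values, −0.15 with quantile normalization and −0.11 with normexp background correction. In 11 members all Old arrays lay below all Young arrays (8.53% of all tested probes and 12.2% of those with symbols did so) and in 2 they lay above (12.8% of all and 9.35% of those with symbols).

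Mrps12, the counterpart of the bacterial protein S12 at the decoding centre of the small subunit, came nearest to a call. It read 0.57, 0.35 and 0.74 on the Old arrays, against 1.84, 1.43 and 1.62 on the Young arrays. No Old array reached any Young array, with a change of −1.08 (SE 0.24, n = 3 each, limma adjusted p = 0.0575). The change was −1.38 within slide 1 and −0.78 within slide 2. On the Geriatric arrays it read 0.97 and 1.34, between the Young and Old arrays, and the changes were −0.47 against Young (limma adjusted p = 0.34) and 0.61 against Old (limma adjusted p = 0.136).

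Among large subunit members the lowest value in Old against Young was that of Mrpl44, a protein added in mitochondria that carries a ribonuclease III fold, with −1.62 (SE 0.64, limma adjusted p = 0.236). It was well above background on only 1 of 3 Old arrays. The next was the upstream probe of Mrpl9, the counterpart of bacterial L9, with −0.82 (SE 0.26, limma adjusted p = 0.144). The highest was Mrpl28, a counterpart of bacterial L28, with 0.81 (SE 0.26, limma adjusted p = 0.157). None of these 3 values passed the test.

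Geriatric against Young compares the extremes of the C57BL/6 series, and again none of the 100 members passed limma's test, where 3.54% of all tested probes did. The lowest adjusted p was 0.0927 and 5 members had an unadjusted p under 0.05 (20.4% of all tested probes did). Median changes were 0.12 for the large and 0.13 for the small subunit, beside 0.02 for probes with symbols and −0.13 for all tested probes. All of the Geriatric arrays lay above all Young arrays in 18 members (16.4% of all tested probes and 22.2% of those with symbols) and below in 14 (26.5% of all and 20.6% of those with symbols).

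Old arrays serve in both Old versus Young and Geriatric versus Old, so the values of those comparisons are not independent of each other. In Geriatric against Old, 9 of 100 members passed limma's test, 8 of them higher and 1 lower in Geriatric cells. That is below the share of all tested probes, of which 18.0% passed (5.32% higher and 12.7% lower). Among probes with symbols 8.29% rose and 6.92% fell. Median changes were 0.21 for the large and 0.34 for the small subunit, beside 0.11 for probes with symbols and −0.18 for all tested probes. With the percentile taken over probes with symbols they were −0.02 and 0.10, beside −0.12 and −0.41, so the sign of the large subunit's median turned with the scaling. Geriatric arrays did not overlap Old arrays in 43 members, higher in 35 (20.4% of all tested probes and 29.6% of those with symbols) and lower in 8 (32.8% of all and 22.4% of those with symbols).

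**Figure D2:**
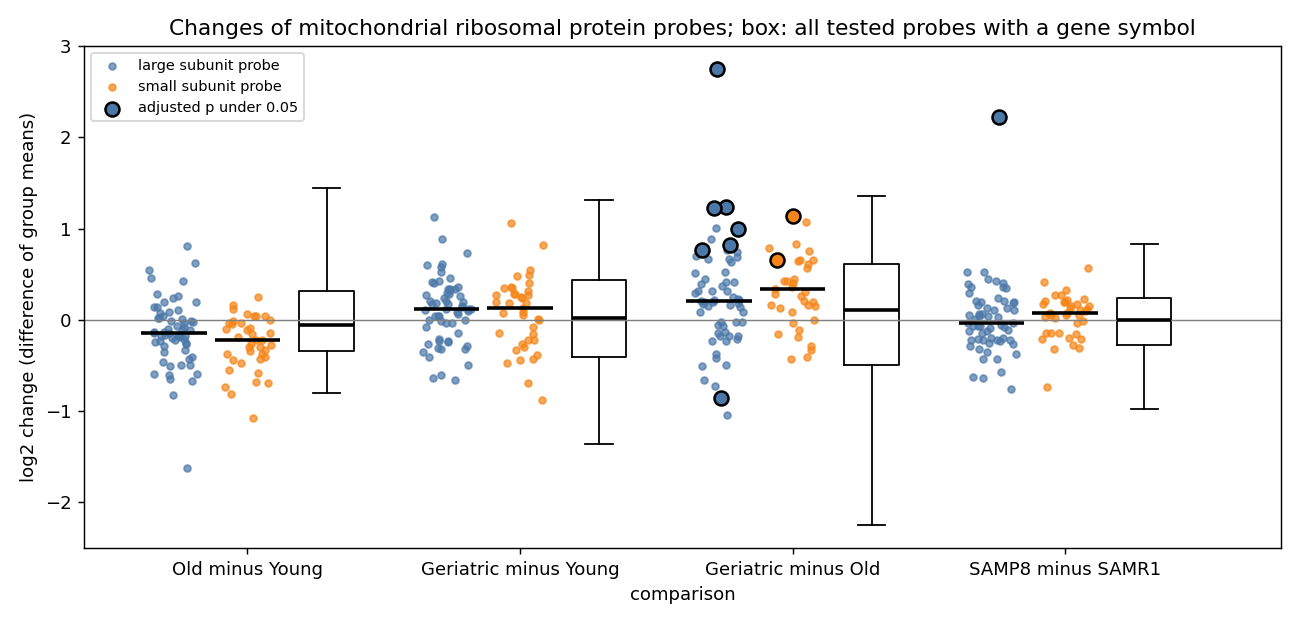
Log2 change of each large subunit probe (blue) and small subunit probe (orange) in 4 comparisons, with bars at the medians, beside a box of all tested probes with a gene symbol (quartiles and median, whiskers from the 5th to the 95th percentile). Large outlined points passed limma's test, 9 in Geriatric minus Old and 1 in SAMP8 minus SAMR1, and most members lie within the whiskers.

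Of the large subunit members that rose in Geriatric against Old, 4 have bacterial counterparts. The upstream Mrpl9 probe read 1.87 and 1.85 on the Geriatric arrays, against 0.13, 1.09 and 0.66 on the Old arrays, and the Young arrays at 1.70, 1.30 and 1.35 lay between them. Its change was 1.24 (SE 0.29, limma adjusted p = 0.0141). Mrpl18, whose bacterial counterpart binds the 5S ribosomal RNA, read −1.60 and −0.84 on the Geriatric arrays, against −2.37, −2.92 and −2.07 on the Old arrays, a change of 1.23 (SE 0.35, limma adjusted p = 0.0326). Mrpl11, whose bacterial counterpart forms the base of the stalk where translation factors bind, read 1.04 and 1.33 on the Geriatric arrays, against 0.49, 0.25 and 0.35 on the Old arrays. All of its Geriatric arrays thus lay above its Old arrays, with a change of 0.82 (SE 0.26, limma adjusted p = 0.0493).

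Mrpl22 and Mrpl4, whose bacterial counterparts line the tunnel through which the new protein leaves the ribosome, went opposite ways. A Mrpl22 probe read 1.56 and 1.79 on the Geriatric arrays, against 0.88, 0.68 and 1.16 on the Old arrays (change 0.77, SE 0.24, limma adjusted p = 0.0447). A Mrpl4 probe read 1.17 and 1.56 on the Geriatric arrays, against 2.27, 2.32 and 2.09 on the Old arrays, and it was the only member that fell (change −0.86, SE 0.22, limma adjusted p = 0.0231). The Mrpl4 probe was also below all Young arrays (1.97, 2.03 and 1.87) on both Geriatric arrays, though that change of −0.60 did not pass (limma adjusted p = 0.168).

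The other large subunit members that rose, Mrpl41 and Mrpl44, are proteins added in mitochondria. The upstream Mrpl41 probe read −1.01 and −0.81 on the Geriatric arrays, against −2.11, −1.92 and −1.66 on the Old arrays. Its Geriatric arrays also lay above every Young, SAMP8 and SAMR1 array, and its change against Old was 0.99 (SE 0.26, limma adjusted p = 0.0246). Mrpl44 read −3.05 and −2.78 on the Geriatric arrays, against −6.55, −6.50 and −3.95 on the Old arrays. Only the last of those Old arrays had a signal well above background, so its change of 2.75 (SE 0.72, limma adjusted p = 0.0236) rests partly on Old values near the floor.

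In the small subunit a probe each of Mrps17 and Mrps26 rose. Mrps17, whose bacterial counterpart binds the 16S ribosomal RNA early in assembly, read −0.26 and −0.11 on the Geriatric arrays, against −1.0, −0.99 and −0.54 on the Old arrays (change 0.66, SE 0.20, limma adjusted p = 0.0447). Mrps26, added in mitochondria, read 1.18 and 1.78 on the Geriatric arrays, against 0.25, 0.32 and 0.44 on the Old arrays. Neither Geriatric array of the Mrps26 probe overlapped the Old arrays, and its change was 1.14 (SE 0.28, limma adjusted p = 0.0192).

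Within slide 2, which holds both Geriatric arrays and Old 1 and 3, the changes were 0.59 to 2.34 for the 8 that rose and −0.82 for Mrpl4. None of them passed limma's test within that slide, where the lowest adjusted p was 0.0673, for the upstream Mrpl9 probe. With slide as a block all of them kept their calls except Mrpl22 (limma adjusted p = 0.0517). The count of 9 fell to 2 without Geriatric 1 (Mrpl18 and Mrps26), 0 without Geriatric 3, 1 without Old 1 (Mrpl9) and 2 without Old 2 (Mrpl9 and Mrps26). It was 4 with the replicate number as a block and 0 when only the Geriatric and Old arrays entered the fit. With the percentile taken over probes with symbols, Mrpl11, Mrpl18, Mrpl22, the upstream Mrpl41 probe and Mrps17 lost their calls (limma adjusted p = 0.0554 to 0.132). Mrpl9, Mrpl44 and Mrps26 kept theirs, and Mrpl4 had a change of −1.1 (limma adjusted p = 0.00735).

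Geriatric arrays also differed from Old arrays in marker lists. The 14 satellite cell probes had a mean level of 2.81 to 2.92 on Geriatric arrays, against 2.08 to 2.53 on Old arrays. By limma's test 3 of them rose (21.4%, against 5.32% of all tested probes and 8.29% of those with symbols) and none fell. The 11 leukocyte probes averaged −1.68 to −1.55 on Geriatric arrays, against −1.31 to −0.16 on Old arrays, with 10 probes above background on each Geriatric array. Of the 11 changes 10 were negative, and 1 probe fell by limma's test (9.09%, against 12.7% of all tested probes and 6.92% of those with symbols). The 8 muscle fibre probes averaged −3.22 to −2.92 on Geriatric arrays, against −2.38 to −2.12 on Old arrays. The 5 tested mesenchymal probes had a median change of 0.98, with 4 of 5 positive, and averaged −1.21 and −0.02 on the Geriatric arrays, against −1.60 to −0.90 on the Old arrays. One of them rose, Dpt, which encodes the matrix protein dermatopontin (1.05, limma adjusted p = 0.0372), and Pdgfra was not above background on any Geriatric or Old array. The part of cell composition in the 9 calls was not tested, and in bulk RNA fewer cells of a type and less RNA per cell cannot be told apart.

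A second probe of the same gene did not always share the call or the sign of the estimated change. Of the 76 genes, 53 had 1 probe, 22 had 2 and Mrpl47 had 3. In Geriatric against Old, 6 genes with several probes had a call on 1 probe and none had a call on all. The downstream Mrpl41 probe read 0.64 and 0.38 on the Geriatric arrays, against 0.97, 1.33 and 1.22 on the Old arrays. The Geriatric arrays were thus the lowest of the C57BL/6 arrays for this probe and the highest for the upstream probe, and its change was −0.66 (SE 0.35, limma adjusted p = 0.202).

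The downstream Mrpl9 probe read −1.15 and −0.66 on the Geriatric arrays, against −0.98, −0.41 and −0.65 on the Old arrays, which overlapped (change −0.23, limma adjusted p = 0.529). The other probe of Mrpl22 had a change of −0.14 (limma adjusted p = 0.79) and the other probe of Mrpl4 one of −0.21 (limma adjusted p = 0.463). For Mrps17 and Mrps26 the second probe had the same sign as the called one, with 0.83 (limma adjusted p = 0.0517) and 0.43 (limma adjusted p = 0.296). So for Mrpl9, Mrpl22 and Mrpl41 the estimated changes of the gene's probes had opposite signs. The second probe did not pass in any of these genes, so a change in the opposite direction is not shown. Transcript variants, which the probes may not share, were not resolved.

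**Figure D3:**
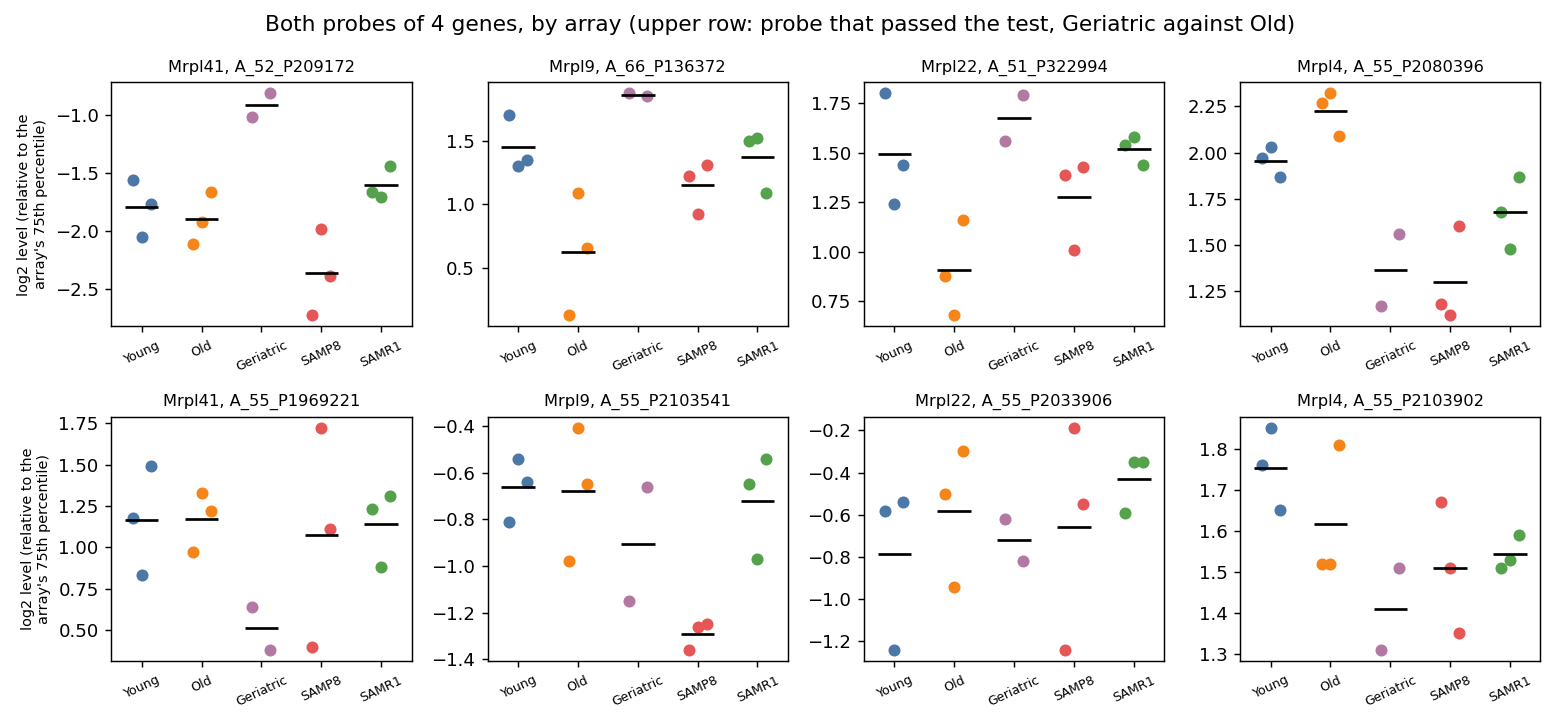
Log2 level of both probes of Mrpl41, Mrpl9, Mrpl22 and Mrpl4 on each array, relative to the array's 75th percentile; points are arrays, bars are group means and each panel has its own scale. In the upper row the probe passed limma's test in Geriatric against Old, and in the lower row, the gene's other probe, it did not.

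Signs were compared over all 23 genes with several probes, whether or not a change passed limma's test. The same count was not made over the array's other genes with several probes. Such disagreement is thus not shown to be particular to the members. Probes of a gene differed in sign in 9 genes for Old against Young and 11 for Geriatric against Young. They did so in 9 for Geriatric against Old and 8 for SAMP8 against SAMR1. The overlapping Mrpl40 probes changed by the same sign in all 5 comparisons, as did the probes of Mrpl43, Mrps7, Mrps18b and Mrps23.

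SAMP8 against SAMR1 compares an accelerated-aging strain with its control strain at 12 months. One member of 100 passed limma's test, where 0.421% of all tested probes did. This was Mrpl35, a counterpart of the bacterial large subunit protein L35. It read −1.21, −1.38 and −1.51 on the SAMP8 arrays, against −3.13, −3.85 and −3.77 on the SAMR1 arrays. Every SAMP8 array lay above every SAMR1 array, with a change of 2.22 (SE 0.31, 95% interval 1.53 to 2.91, limma adjusted p = 0.00968).

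The C57BL/6 arrays lay mostly between the strains, with −2.47, −2.02 and −2.77 in Young, −2.13, −1.25 and −2.03 in Old and −1.48 and −2.16 in Geriatric cells. With slide as a block the change of Mrpl35 between SAMP8 and SAMR1 was 2.27 (limma adjusted p = 0.0155). Within slide 1 it was 2.07 and within slide 2 it was 2.49. Each slide held only 1 array of a strain, SAMP8 2 on slide 1 and SAMR1 2 on slide 2. In the main fit the change was 2.08 without SAMR1 2 (limma adjusted p = 0.0578) and 2.12 without SAMR1 3 (limma adjusted p = 0.0533). It passed when any other single array was left out. The gene has 1 probe on the array, so no second probe can be set beside it. In this comparison the median change was 0.22 for the 5 tested mesenchymal probes (3 positive), 0.21 for the 11 leukocyte probes (8 positive), −0.43 for the 8 muscle fibre probes (7 negative) and −0.73 for the 8 endothelial probes (8 negative). None of these probes passed limma's test, and the part of cell composition in the Mrpl35 value was not tested.

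**Figure D4:**
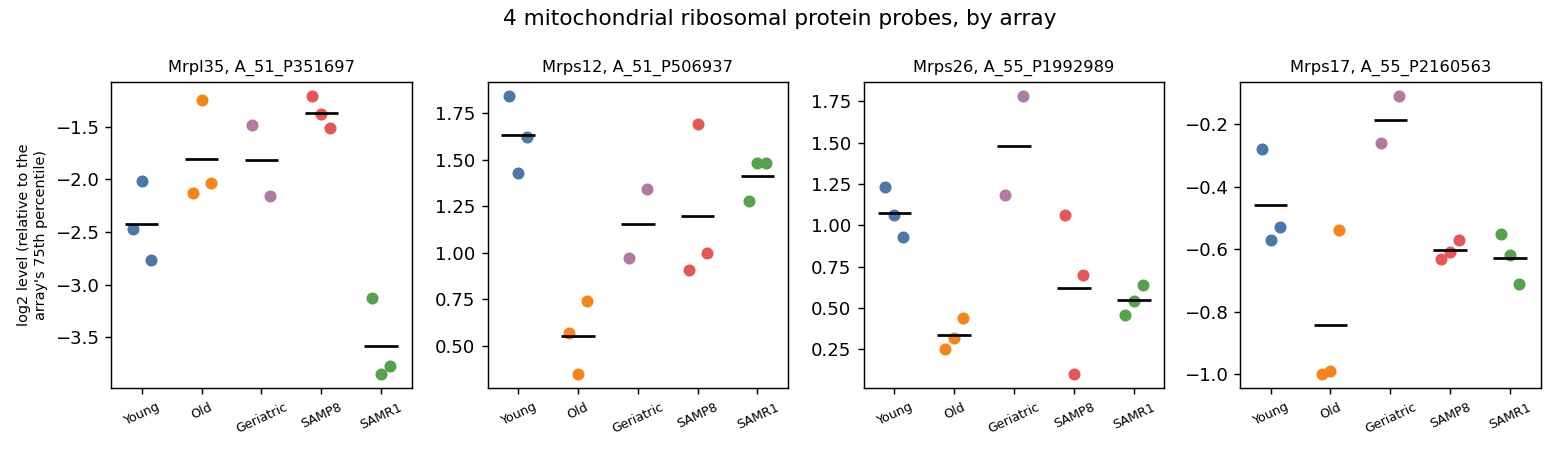
Log2 level of the Mrpl35, Mrps12, Mrps26 and Mrps17 probes on each array, relative to the array's 75th percentile; points are arrays, bars are group means and each panel has its own scale. Mrpl35 lies between −1.51 and −1.21 in SAMP8 cells and between −3.85 and −3.13 in SAMR1 cells, and Mrps12 is lowest in Old cells, at 0.35 to 0.74.

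Over all members the changes between the strains lay about 0. Median changes of SAMP8 against SAMR1 were −0.04 for the large and 0.07 for the small subunit, with 55 members positive and 45 negative, and 4 had an unadjusted p under 0.05 (8.45% of all tested probes did). The upstream Mrpl41 probe had the lowest change, with −2.73, −1.98 and −2.39 on the SAMP8 arrays, against −1.66, −1.71 and −1.44 on the SAMR1 arrays (change −0.76, SE 0.23, limma adjusted p = 0.308). Every SAMP8 array lay below every SAMR1 array for this probe. In the whole family such a gap was seen in 5 members upward (7.61% of all tested probes and 7.78% of those with symbols) and 5 downward (5.52% of all and 6.07% of those with symbols).

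The difference between the Geriatric versus Young change and the SAMP8 versus SAMR1 change asks whether a transcript moved alike between ages and between strains. SAMP8 and SAMR1 mice were of the same age, so their change is a strain difference and does not measure aging. Sex-linked transcripts also divide Geriatric from Young arrays, and their part in the difference was not tested. For this difference, 1 member passed limma's test, where 1.57% of all tested probes did. It was the upstream Mrpl41 probe, with 0.88 in Geriatric against Young, −0.76 in SAMP8 against SAMR1 and a difference of 1.64 (SE 0.35, limma adjusted p = 0.0419), although neither change passed by itself. The downstream Mrpl41 probe gave −0.59 (SE 0.47, limma adjusted p = 0.554). The call was lost when any of 10 of the 14 arrays was left out, with differences of 1.46 to 1.83 over all 14 and the highest adjusted p, 0.161, without Geriatric 3. The next member, Mrpl35, had a difference of −1.62 (SE 0.47, limma adjusted p = 0.134).

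Calls among genes that act with this ribosome are set beside the 5.32% of all tested probes and 8.29% of those with symbols that rose in Geriatric against Old. In Geriatric against Old, 1 of 10 probes for mitoribosome subunits named otherwise rose (Ptcd3, a pentatricopeptide protein of the small subunit, by 0.76, limma adjusted p = 0.0322), with a list median of 0.49. Of 24 probes for assembly and rRNA modification factors 3 rose (12.5%) and none fell, namely Mtg1, a GTPase of large subunit assembly, Mettl17 and Ngrn. Of 21 probes for mitochondrial translation factors (13 genes), 18 were above background on each Old array and 20 on each Geriatric array. Their changes were positive for 15 and negative for 6. By limma's test 4 rose (19.0%) and none fell. These were the initiation factor Mtif3 (1.25, limma adjusted p = 0.00689), the elongation factor Gfm1 (1.21, limma adjusted p = 0.0369), the ribosome recycling factor Gfm2 (1.33, limma adjusted p = 0.00424) and Guf1 (1.86, limma adjusted p = 0.00732). One of 28 synthetase probes (Ears2, which charges glutamate tRNA) and 1 of 23 probes for mitochondrial DNA transcription and RNA processing (Polg2, the accessory subunit of the mitochondrial DNA polymerase) rose as well.

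The probes for the RNAs that the mitochondrial ribosome translates did not pass in any comparison. Their 11 changes had a median of −0.31 in Geriatric against Old, with 9 negative, and of 0.26 in SAMP8 against SAMR1, with all 11 positive. The cytosolic ribosomal proteins had a median of −0.29 in Geriatric against Old, with 0 of 179 probes higher and 5 lower (2.79%) by limma's test, and the nuclear-encoded oxidative phosphorylation subunits one of 0.14, with 2 of 117 higher (1.71%) and 1 lower (0.855%), where 5.32% of all tested probes were higher and 12.7% lower. In Geriatric against Young the only calls among these lists were Gfm2 (1.18, limma adjusted p = 0.0215) and Cox8b, a muscle isoform of cytochrome c oxidase (2.22, limma adjusted p = 0.00645). In Old against Young they were Cox8b (1.77, limma adjusted p = 0.0271) and Cox6b1, a further subunit of that enzyme (0.97, limma adjusted p = 0.0487). No probe of these lists passed in SAMP8 against SAMR1. For the difference between the Geriatric versus Young change and the SAMP8 versus SAMR1 change, a probe of Guf1 passed (2.60, limma adjusted p = 0.0271).

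The genes are spread over 17 chromosomes, with 10 genes on chromosome 11, 8 on chromosome 17 and 7 on chromosome 6. The closest members are Mrpl46 and Mrps11 on chromosome 7, whose probes lie 8178 bases apart. Nuclear respiratory factor 1 (NRF-1), ETS-family factors such as GABP, and YY1 are known to act on nuclear genes for mitochondrial proteins. Promoter windows of 300 bases, from 250 before to 50 after the gene's start, were found in RefSeq (build GRCm38.p6) for 67 of the 76 genes, which have 73 windows since 3 genes have several. The letters searched on both strands were CCGGAAG for ETS, GCATGCGC for NRF-1 and AAGATGGC for YY1. A gene was counted once per motif if any of its windows held it, and the NRF-1 letters can overlap their own reverse complement at a single site.

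ETS letters were in windows of 24 of the 67 genes (35.8%), against 12.9% of 17492 protein-coding genes. NRF-1 letters were in 8 (11.9%, against 3.94%), 7 of them in the large subunit, and YY1 letters in 12 (17.9%, against 3.57%). In all 36 genes had a window with at least 1 of the motifs (53.7%, against 18.7%). These matches are a description of letters in the window and do not show that a factor binds. The promoters of Mrpl22 and Mrps12, whose probes are described above, are shown because each holds 2 of the motifs, which stand in capitals. That of Mrpl22, at chr11:58171414-58171713 on the plus strand, holds ETS and NRF-1 letters, and that of Mrps12, at chr7:28741772-28742071 on the minus strand, holds YY1 and ETS letters.
Mrpl22: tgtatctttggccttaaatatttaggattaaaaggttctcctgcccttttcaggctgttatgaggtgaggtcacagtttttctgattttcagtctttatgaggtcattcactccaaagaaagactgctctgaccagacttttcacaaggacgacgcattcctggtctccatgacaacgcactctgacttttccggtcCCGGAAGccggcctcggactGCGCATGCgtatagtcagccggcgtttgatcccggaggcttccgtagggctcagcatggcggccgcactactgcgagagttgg
Mrps12: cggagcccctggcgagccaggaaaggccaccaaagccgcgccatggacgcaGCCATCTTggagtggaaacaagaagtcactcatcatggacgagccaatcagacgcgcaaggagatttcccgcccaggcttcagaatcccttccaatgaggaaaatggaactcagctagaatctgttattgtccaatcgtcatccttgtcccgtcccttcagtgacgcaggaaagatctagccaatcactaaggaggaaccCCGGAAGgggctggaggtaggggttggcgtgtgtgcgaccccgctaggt

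**Figure D5:**
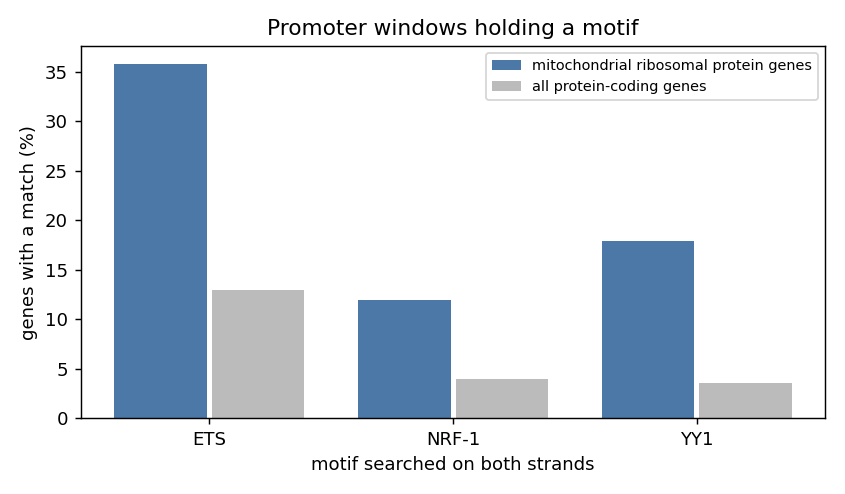
Percent of genes with a 300-base promoter window that matches the ETS, NRF-1 or YY1 letters, for the 67 mitochondrial ribosomal protein genes with a window (blue) and for all 17492 protein-coding genes (grey). The shares were 35.8% against 12.9% for ETS, 11.9% against 3.94% for NRF-1 and 17.9% against 3.57% for YY1.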

How the data were processed

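RNA of 14 samples was hybridised to 14 single-colour Agilent arrays. Per the file headers, the deposited scanner files hold each spot's background-subtracted processed signal as an intensity, made with Feature Extraction 10.7.3.1. Probe coordinates are those of mm9. The authors' deposited log2 value table equals, to within 1.17e-04, a normexp background correction (offset 50) with quantile normalization. The step between RNA and slide was a whole-transcriptome amplification, per the labels' protocols. Array number limits the precision.

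From the scanner files, control spots and outlier spots were left out, repeat spots averaged on the log2 scale, and each array's 75th percentile subtracted. A probe entered the fit if some group had at least 2 arrays with it well above background (49918 of 55681). limma 3.58.1 in R 4.3.3 (lmFit, eBayes, two-sided, 1 coefficient per group, adjusted p under 0.05) was tested on simulated data. Named probes are those called, the 2 largest rises and falls per subunit and comparison and probes at the ends of the level range. Genes with disagreeing probes and a set of genes chosen by hand were named as well. Not all are printed. The probes' classes, gene lists and motifs were set by hand, and members, lists and alternatives were chosen with earlier results of these data known. No column of values was left unmapped (0). Slide membership was read from array identifiers in the file headers.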

Additional observations from a re-analysis of the deposited data

Results flagged for a closer look

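The upstream Mrpl41 probe (A_52_P209172) stands out because the Geriatric minus Young change and the SAMP8 minus SAMR1 change differed by limma's interaction test, by 1.64 (SE 0.35, limma adjusted p = 0.0419). The probe was 0.88 higher in Geriatric than in Young cells and 0.76 lower in SAMP8 than in SAMR1 cells on the log2 scale (a change of −0.76). It was the call of 1 in 100 members, where 1.57% of all tested probes passed, and the call was lost under 18 of 26 other settings, 10 of them with 1 array left out. The downstream Mrpl41 probe had −0.66 and −0.06 in the same comparisons, and sex-linked transcripts also divide Geriatric from Young arrays, whose part in the difference was not tested.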

How the results depend on the processing

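In Old against Young the count of 0 members called became 1 (Mrps12, lower in Old) with 1 probe per gene, the authors' deposited log2 values, the mean of a gene's probes, normexp background correction, a prior variance with a trend, and probes above background on all arrays. With 1 array left out it ranged from 0 to 1, the 1 being Mrpl44 without Old 3 and Mrps12 without SAMP8 2, and in Geriatric against Young from 0 to 1 (Mrps35 without Old 2). In Geriatric against Old the count of 9 was 5 with the mean of a gene's probes, 0 when only the groups compared were fitted and 0 within slide 2, and it ranged from 0 to 11 with 1 array left out. Correlations of same-numbered arrays' deviations ran from −0.23 to 0.17. Differently numbered arrays were not compared, so these values do not settle whether replicate numbers pair the arrays. With replicate number as a block the count in Geriatric against Old was 4. In SAMP8 against SAMR1 the count of 1 was 0 with only the groups compared and within either slide, and 0 to 1 with 1 array left out. For the difference of changes the count of 1 was 2 with normexp and 0 with 1 probe per gene, the percentile over probes with symbols, the authors' values, the mean of a gene's probes, only the groups compared, a trend, quantile normalization, the replicate block and within slide 2, and 0 to 1 with 1 array left out. The fit with the replicate block changed no other of these counts. In Geriatric against Old, medians moved to −0.02 (large) and 0.10 (small subunit) with the percentile over probes with symbols, and in SAMP8 against SAMR1 the small subunit median was −0.09 within slide 1. Scaling also moved all probes. The share of Geriatric against Old calls that were higher was 29.6%, against 46.6% with the authors' values, 51.6% with quantile normalization and 14.7% with the symbols percentile. For Old against Young it was 83.5%, against 73.2% with the authors' values and 63.8% with quantile normalization. For Geriatric against Young it was 38.2%, against 52.2% with the authors' values. For SAMP8 against SAMR1 it was 49.5%, against 59.7% with normexp. For the difference it was 32.7%, against 48.8% with the authors' values. Counts over all tested probes moved by more than 1.5 times under some settings. With normexp they were 13475 against 8980 (Geriatric against Old), 1375 against 618 (Old against Young), 357 against 210 (SAMP8 against SAMR1) and 1238 against 784 (difference). With only the groups compared they were 3960, 51 and 69 for the first 3 of those comparisons and 560 against 1769 for Geriatric against Young. With the replicate block they were 294 for Old against Young, 1125 for Geriatric against Young and 473 for the difference, and with slide as a block 1083 for Geriatric against Young. Old against Young had 1033 with the authors' values and 374 with probes above background on all arrays, where the difference had 438, and SAMP8 against SAMR1 had 137 with the mean of a gene's probes. Within slide 2 the count was 2081 for Geriatric against Old and 0 for the others, and within slide 1, which has no Geriatric array, it was 0 for Old against Young and for SAMP8 against SAMR1. Over 5741 values of single probes under other settings, 5611 kept their side of the threshold, 112 lost a call, 18 gained one and 0 reversed, where a call is limma's adjusted p under 0.05. These values belong to 212 results, most of which had no call to lose. All 112 losses fell on the 9 calls in Geriatric against Old, the 1 in SAMP8 against SAMR1 and the 1 for the difference. In Geriatric against Old the calls were lost in from 4 of 26 settings (Mrps26) to 18 of 27 (Mrpl11). Mrpl35 lost its call in 5 of 28 settings and the upstream Mrpl41 probe lost that for the difference in 18 of 26. The cause was not tested.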

Other observations

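Within 1000000 bases of the Mrpl35 probe on chromosome 6, a window chosen after its values were seen, 53 probes were tested in SAMP8 against SAMR1. Besides Mrpl35, 1 probe passed limma's test there: Capg, which encodes an actin-capping protein, with −1.86 (SE 0.21, limma adjusted p = 0.00186). The other probes had a median change of −0.15. Immt, which encodes the inner membrane protein mitofilin and whose probe lies nearest among those with symbols on the far side of Mrpl35's start, had −0.81 (SE 0.19, limma adjusted p = 0.141).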
